A study of Mus musculus with 24 samples.

Results

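Gene expression in the ventral hippocampus was compared with that in the dorsal hippocampus of 6 C57BL/6J mice whose sires had received saline over a long period. These libraries are the control arm of a study of offspring of nicotine-treated males. They were chosen by the numbers 497 and 499 in the library titles, and they make up 12 of the 24 libraries of the study: 6 dorsal and 6 ventral, 1 of each from every animal. The animals 497A, 497B and 497C were male and the animals 499A, 499B and 499C were female. Sex and title number cannot be told apart, and the labels give neither the age of the offspring nor the dose, nor whether animals with 1 number share a sire or litter. The labels do not name the animals, so the pairing rests on the shared title prefix, and p-values measure the spread between these pairs. The 12 nicotine-sired libraries (6 animals) serve below as a second set of pairs.

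The hippocampus is a curved structure whose dorsal and ventral ends receive and send different connections. The dorsal end is best known for its part in spatial memory, and the ventral end for fear, anxiety and stress responses through its links with the amygdala, prefrontal cortex and hypothalamus. Both ends hold the same fields in series, the dentate gyrus with its granule cells and the pyramidal cells of CA3, CA2 and CA1. Transcription factors, guidance molecules, channels and receptors are graded within each field along this long axis.

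The 12 libraries held 32049770 to 43576680 counts each, with 23699 to 25419 genes counted at least once. Choroid plexus, the secretory epithelium of the ventricles, lies against the hippocampus, and its markers differed between the dissections. The summed level of the 20 choroid plexus markers was 214 to 412.6 CPM (counts scaled to a common library size) in 4 dorsal libraries, 1560 CPM in 499C dorsal and 7841 CPM in 497A dorsal, against 174 to 336 CPM in the ventral libraries. The dorsal libraries of 497C and 499C also lay nearest the ventral ones, with 508 and 468 CPM of summed ventral pole markers against 319 to 424 CPM in the other 4 dorsal libraries. Gpr151, a receptor transcript of the habenula, was at 7.38 CPM in 499C ventral against at most 1.01 CPM in the other 11 libraries. The summed level of the thalamic and habenular markers was 160.4 CPM in that library, 217 CPM in 497A dorsal and 101 to 161 CPM in the other 10 libraries. Reads assigned to 616 noncoding genes opposite coding genes were 0.434% of those of their hosts in 497B dorsal and 0.179% to 0.231% in the other libraries. The part of these differences in the results below was not tested beyond the values given beside them.

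Many genes differed between the regions, most of them slightly. Of 18121 genes tested, 3392 (18.7%) were called, that is, had an adjusted p under 0.05 in edgeR's paired quasi-likelihood test. Of these, 1615 (8.91% of genes tested) were higher in the ventral and 1777 (9.81%) higher in the dorsal hippocampus. The median absolute log2 fold change among called genes was 0.294. Called genes that differed at least 2-fold numbered 125 (0.69%) higher in ventral and 108 (0.596%) higher in dorsal. For 845 genes (4.66%) the CPM ranges of the 6 dorsal and the 6 ventral libraries did not overlap. The 18.7% called among all genes is the share to set beside each count of called list members below. Without the animals 497A and 499C, the count was 3442, and without 497C and 499C it was 2812, of which 442 genes differed at least 2-fold. Without the replicate block, that is, without pairing the libraries of an animal, 1932 genes were called. Leaving out 1 animal gave 1168 calls without 497B, 2040 without 497C and 1835 without 499A, and calls of at least 2-fold numbered 83 without 497B, 114 without 499A, 140 without 499B and 370 without 499C, against 233. Throughout, fold changes are log2 values, ventral over dorsal. The value after ± is a standard error derived from edgeR's test statistic. The spread behind it draws on all genes tested as well as on the pairs fitted.

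**Figure D1:**
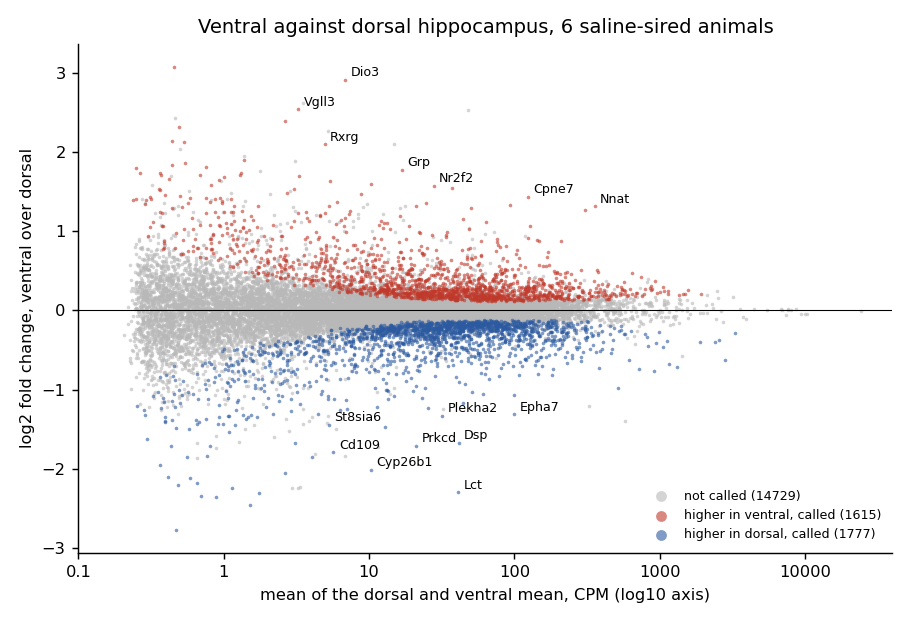
Each point is 1 of 18121 genes, with the average of its dorsal and ventral mean CPM on a log10 axis and the log2 fold change, ventral over dorsal, on the vertical axis. Red points are the 1615 genes called higher in ventral and blue points the 1777 called higher in dorsal, and the labelled genes include Dio3 at 2.92 and Lct at -2.30.

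Among called coding genes with a mean of at least 5 CPM in the higher region and the same direction in all 6 animals, those with the largest dorsal excess were Lct, Cyp26b1, Cd109, Prkcd and Dsp. Lct (chr1:128284756-128328318, GRCm38, minus strand) encodes lactase, the intestinal disaccharidase, and is also known as a dorsal hippocampal transcript. It lay between 38.7 and 101 CPM in dorsal libraries (median 62.0) and between 3.96 and 24.4 CPM in ventral libraries (median 14.4). The ranges did not overlap, and the fold change was -2.30 ± 0.45 (edgeR adjusted p = 0.0226). Cyp26b1 (chr6:84571414-84593908, minus strand), the enzyme that clears retinoic acid, ranged from 10.5 to 21.2 CPM in dorsal (median 17.5) and from 2.92 to 7.29 CPM in ventral libraries (median 3.66). Its fold change was -2.01 ± 0.32 (edgeR adjusted p = 0.0114), and it stayed called when any 1 animal was left out. Prkcd, the protein kinase C delta gene, was lower in ventral, at medians of 30.9 and 8.27 CPM (-1.71 ± 0.32, edgeR adjusted p = 0.0197). Its highest ventral value, 17.1 CPM, came from 499C, whose ventral library also held the most Gpr151. Cd109, a membrane glycoprotein, had a fold change of -1.79 ± 0.36 (edgeR adjusted p = 0.0195), and the sialyltransferase St8sia6 one of -1.45 ± 0.16 (edgeR adjusted p = 0.00333). With 1 animal left out, calls were lost for Lct without 497A, 497B, 499A or 499B, Cd109 and Dsp without 497B, and Prkcd without 497B or 499A, with edgeR adjusted p-values of at most 0.0716. Cd109 and Dsp were also not called without both 497A and 499C (edgeR adjusted p = 0.0748 and 0.0618).

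The other 9 genes of the dorsal group had fold changes from -1.48 to -1.12. Fam84b (-1.48 ± 0.17) and Plekha2 (-1.33 ± 0.19), a phosphoinositide-binding adaptor, overlap noncoding genes on the opposite strand by 2474 and 959 exonic bp, and the strand setting of the counting is not given in the sources used here. Dsp (499 bp), Dnah9 (495 bp), Stac (299 bp) and St8sia6 (112 bp) also overlap exons of genes on the opposite strand. Epha7, a receptor for membrane-bound ephrins, was the most abundant member. It lay between 95.7 and 170 CPM in dorsal libraries (median 151) and between 43.7 and 68.2 CPM in ventral libraries (median 57.4), with no overlap (-1.31 ± 0.20, edgeR adjusted p = 0.0107). Stac (-1.30 ± 0.20), an adaptor of calcium channels, and Zfhx4 (-1.25 ± 0.18), a homeodomain zinc finger factor, were also called in every fit that left out 1 animal, as were Vwa3b (-1.14 ± 0.18), Fam84b, Plekha2, St8sia6 and Epha7. Strip2 (-1.24 ± 0.24), Lingo3 (-1.17 ± 0.23) and Dnah9 (-1.12 ± 0.23), a heavy chain of axonemal dynein, were not called in all of these fits. The call was lost for Strip2 without 497B, 499A or 499B, Lingo3 without 497A, 497B, 499A or 499B, and Dnah9 without 497A, 497B or 499A, with edgeR adjusted p-values of at most 0.0695.

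By the same measure, the genes with the largest ventral excess were Dio3, Vgll3, Rxrg, Grp and Gpr101. Dio3 (chr12:110279068-110281097, plus strand), which encodes the deiodinase that inactivates thyroid hormone, lay between 0.502 and 5.35 CPM in dorsal libraries (median 0.655) and between 9.51 and 16.5 CPM in ventral libraries (median 10.6). The groups did not overlap, and the fold change was 2.92 ± 0.71 (edgeR adjusted p = 0.0407). Rxrg (chr1:167598384-167639623, plus strand), the retinoid X receptor gamma, ranged from 0.746 to 4.99 CPM in dorsal (median 1.36) and from 6.09 to 10.1 CPM in ventral libraries (median 7.67), again without overlap (2.097 ± 0.42, edgeR adjusted p = 0.0200). The transcriptional cofactor Vgll3 was at 0.373 to 3.51 CPM in dorsal and 3.48 to 7.83 CPM in ventral libraries, with the highest dorsal value just above the lowest ventral one (2.54 ± 0.51, edgeR adjusted p = 0.0193). Gpr101, an orphan receptor, had a fold change of 1.599 ± 0.31 (edgeR adjusted p = 0.0195). Grp, the gastrin-releasing peptide of principal neurons, was higher in ventral, at medians of 6.21 and 24.6 CPM (1.77 ± 0.37, edgeR adjusted p = 0.0261). All 5 calls were lost in some fits that left out 1 animal. They ended for Dio3 and Grp without 497A, 497B, 499A or 499B, and for Vgll3 and Rxrg without 497A, 497B or 499A. The Gpr101 call ended without 497B or 499A, and edgeR adjusted p-values in these fits were at most 0.12. All 5 were called without both 497C and 499C (edgeR adjusted p of at most 0.00943). Of the 5, only Rxrg was called without both 497A and 499C (edgeR adjusted p = 0.0244).

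Nnat was the most abundant of the ventral group and its call held with each animal left out. Nnat (chr2:157560078-157562522, plus strand) encodes neuronatin, a small membrane protein of calcium handling. It ranged from 123 to 325 CPM in dorsal libraries (median 213) and from 397 to 631 CPM in ventral libraries (median 475), with no overlap (1.32 ± 0.20, edgeR adjusted p = 0.00930). Cpne2 and Cpne7 encode copines, calcium-dependent membrane-binding proteins, and had fold changes of 1.54 ± 0.25 and 1.43 ± 0.24 (edgeR adjusted p = 0.0121 and 0.0134). Both just missed the threshold without 499A (0.0514 and 0.0551). Fxyd6, a regulator of the sodium pump, was at 35.7 to 98.1 CPM in dorsal and 111 to 158 CPM in ventral libraries (1.33 ± 0.26). Ntn5 (1.37 ± 0.32), a netrin, and Cntnap3 (1.32 ± 0.33), a contactin-associated protein, were lower in level, with ventral medians of 8.25 and 7.20 CPM. Ntn5 overlaps a gene on the opposite strand by 519 exonic bp. Leave-one-out fits lost Fxyd6, Ntn5 and Cntnap3 without 497A, 497B, 499A or 499B, with edgeR adjusted p-values of at most 0.102. Cntnap3 also just missed the threshold without both 497A and 499C (edgeR adjusted p = 0.0516).

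**Figure D2:**
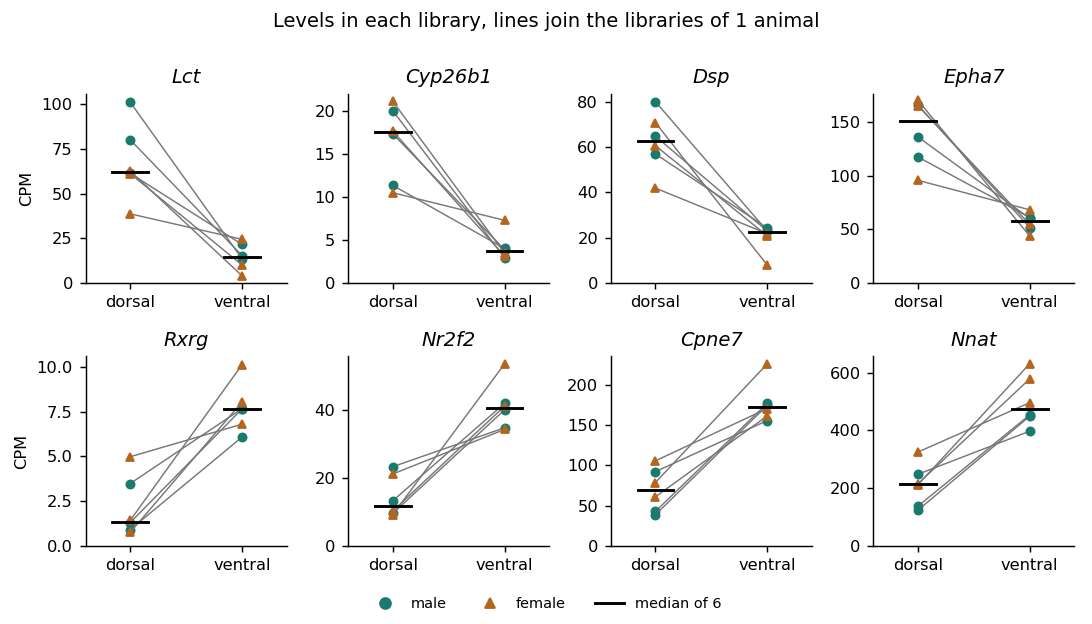
Levels (CPM, linear axis from 0) of 8 genes in every library, with lines joining the 2 libraries of an animal, circles for males, triangles for females and black bars for the median of 6. In the upper row (Lct, Cyp26b1, Dsp, Epha7) every animal was lower in ventral, and in the lower row (Rxrg, Nr2f2, Cpne7, Nnat) every animal was higher. The same direction in all 6 animals was a condition for choosing these genes.

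Upstream sequences are shown for 3 of these genes because they bear on retinoid signalling, in which Cyp26b1 and Rxrg act, and on the gene with the largest dorsal excess, Lct. Bases are from the RefSeq promoter table (GRCm38.p6), 5′ to 3′ on the strand of the gene, and lie clear of annotated exons, which leaves 152 bases for Cyp26b1. Capitals mark AGGTCA and AGTTCA, half-sites that nuclear receptors such as retinoid X receptors bind, searched on both strands.
Rxrg, first start, chr1:167598112-167598361, plus strand: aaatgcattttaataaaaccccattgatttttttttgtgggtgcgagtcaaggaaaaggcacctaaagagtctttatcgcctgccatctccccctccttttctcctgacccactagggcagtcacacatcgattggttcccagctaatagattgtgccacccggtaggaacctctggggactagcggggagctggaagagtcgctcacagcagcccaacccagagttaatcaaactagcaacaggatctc
Rxrg, second start, chr1:167618015-167618264, plus strand: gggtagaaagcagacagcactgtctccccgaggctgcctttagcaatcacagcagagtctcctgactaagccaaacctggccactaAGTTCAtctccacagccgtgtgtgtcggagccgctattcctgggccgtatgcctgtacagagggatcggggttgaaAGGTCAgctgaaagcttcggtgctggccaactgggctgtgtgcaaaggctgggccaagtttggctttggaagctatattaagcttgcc
Cyp26b1, chr6:84593909-84594060, minus strand: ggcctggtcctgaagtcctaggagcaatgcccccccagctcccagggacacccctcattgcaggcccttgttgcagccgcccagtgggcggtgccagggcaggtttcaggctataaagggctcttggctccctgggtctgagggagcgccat
Lct, chr1:128328319-128328568, minus strand: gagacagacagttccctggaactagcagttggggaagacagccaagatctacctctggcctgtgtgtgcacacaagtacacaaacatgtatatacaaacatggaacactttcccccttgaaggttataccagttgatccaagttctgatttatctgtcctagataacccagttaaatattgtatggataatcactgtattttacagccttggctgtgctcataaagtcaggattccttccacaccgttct
Rxrg has 2 starts in the table. Its second start held 1 match of each kind, while the first Rxrg start, at the beginning of the gene, and the Cyp26b1 and Lct windows held 0. For shares over many genes, only the first window listed for each gene was used, so the second Rxrg start is not among them. Windows of 250 bases with either motif made up 24.1% of the 27025 genes in the table and 18.4% of the 11880 found for tested genes. Among genes called at least 2-fold, they made up 17.7% of the 79 promoters found for ventral and 21.7% of the 69 found for dorsal genes. A match describes letters in the window and is not a binding site.

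Markers known for the ends of the hippocampus, mostly of CA1, followed the labels of the libraries. These markers were chosen with earlier results of these data known, so their direction is a description and not a check of the labels. Of 12 ventral pole markers tested, 6 were called higher in ventral and 0 higher in dorsal, with a median fold change of 1.18 against -0.0012 over all genes tested. Of 8 dorsal pole markers, 6 were called higher in dorsal and 0 higher in ventral (median -0.546). Nr2f2 (chr7:70351944-70366735, minus strand), the transcription factor COUP-TFII, lay between 9.19 and 23.3 CPM in dorsal libraries (median 11.8) and between 34.3 and 53.7 CPM in ventral libraries (median 40.7). The ranges did not overlap (1.58 ± 0.31, edgeR adjusted p = 0.0213), though 643 exonic bp of Nr2f2 face a noncoding gene on the other strand. Its relative Nr2f1 (COUP-TFI) differed less, from a dorsal median of 37.1 to a ventral median of 50.2 CPM (0.39 ± 0.06, edgeR adjusted p = 0.00633). The zinc finger factor Plagl1 was called with a fold change of 1.32 ± 0.33 (edgeR adjusted p = 0.0425), and Lypd1, a member of the Ly6 family, with one of 0.35 ± 0.06 (edgeR adjusted p = 0.00695). Single omissions ended the calls of Plagl1 without 497A, 497B, 499A, 499B or 499C, and Nr2f2 without 497A, 497B or 499A, with edgeR adjusted p-values of at most 0.13, whereas Nr2f1 and Lypd1 stayed called. Plagl1 and Nr2f2 were not called without both 497A and 499C (edgeR adjusted p = 0.18 and 0.0752). Both were called without 497C and 499C.

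A ventral marker with wide separation missed the threshold. Dcn, which encodes the proteoglycan decorin, was at 6.27 to 8.603 CPM in 4 dorsal libraries and at 37.2 and 41.5 CPM in 499C and 497C dorsal, against 49.1 to 99.01 CPM in all ventral libraries. The ranges did not overlap, yet the fold change of 2.53 ± 0.67 had an edgeR adjusted p of 0.0553. Trhr, the receptor for thyrotropin-releasing hormone, had a fold change of 2.27 ± 0.62 (edgeR adjusted p = 0.0546). Calb2 (calretinin, 1.04 ± 0.39), Htr2c (a serotonin receptor, 0.89 ± 0.34), Coch (0.29 ± 0.33) and Etv1 (0.21 ± 0.16) were not called either. DESeq2's Wald test and edgeR without robust estimation each called 10 of the 12 ventral markers, while edgeR called 2 of them without 499A, 3 without 497B and 3 without 497A and 499C. It called 4 without 497A or 499B and 7 without 497C. The count was 8 without both 497C and 499C, and 8 without the replicate block.

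Among the dorsal markers, Iyd, an iodotyrosine deiodinase, differed most after Lct, from 2.80 to 6.79 CPM in dorsal and 0.457 to 1.94 CPM in ventral libraries (-1.68 ± 0.38, edgeR adjusted p = 0.0245). The secreted factor Lefty1 had a fold change of -0.98 ± 0.25 and the protease inhibitor Spink8 one of -0.56 ± 0.15 (edgeR adjusted p = 0.0365 and 0.0412), each lower in ventral in 5 of 6 animals. Pdzd2 (-0.53 ± 0.08) and Rph3a (-0.48 ± 0.09), the synaptic vesicle protein rabphilin, were lower in ventral in all 6 animals (edgeR adjusted p = 0.00552 and 0.00922), although Pdzd2 was not called without the replicate block (edgeR adjusted p = 0.0636). Wfs1, a marker of dorsal CA1, was at 151 to 203 CPM in dorsal and 76.4 to 207 CPM in ventral libraries and was not called (-0.35 ± 0.20, edgeR adjusted p = 0.272). Gsg1l, an AMPA receptor partner, lay on the other side (0.50 ± 0.20) and was not called. The count of 6 became 2 without 497A, 497B or 499B, 3 without 499A and 4 without 497C. Without 499C it stayed at 6, and 1 member, Gsg1l, was called higher in ventral. Among the dorsal markers calls were lost for Lct without 497A, 497B, 499A or 499B, Iyd without 497A, 497B or 499B, and Lefty1 and Spink8 without 497A, 497B, 497C, 499A or 499B, with edgeR adjusted p-values of at most 0.112. Iyd was also not called without both 497A and 499C (edgeR adjusted p = 0.0942).

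Markers of dentate granule cells were lower in ventral as a group. Of 11 tested, 9 were called higher in dorsal and 0 in ventral, with a median of -0.81. Dsp (chr13:38151294-38198577, plus strand), which encodes the junction protein desmoplakin, lay between 41.9 and 80.2 CPM in dorsal libraries (median 62.8) and between 7.89 and 24.3 CPM in ventral libraries (median 22.4), with no overlap (-1.67 ± 0.29, edgeR adjusted p = 0.0163). Plk5, a neuronal polo-like kinase, had a fold change of -1.01 ± 0.20, Tdo2 (tryptophan dioxygenase) one of -0.94 ± 0.19 and Dock10, an exchange factor for small GTPases, one of -0.87 ± 0.13. Prox1, the transcription factor that specifies granule cells, lay at a dorsal median of 75.4 CPM and a ventral median of 44.9 CPM (-0.81 ± 0.20, edgeR adjusted p = 0.0396). C1ql2 (-0.60 ± 0.20) and Calb1 (calbindin, -0.04 ± 0.06) were not called. The summed level of the list was 499.6 to 793 CPM in dorsal and 317 to 492 CPM in ventral libraries. In bulk tissue, fewer cells of a type and less RNA per cell cannot be told apart. The count was 6 without 497A and 499C and 5 to 9 with 1 animal left out, 5 being the value without 497B. Losses among the named markers were Dsp without 497B, Plk5 without 497A or 497B, and Prox1 without 497A, 497B, 497C or 499C, with edgeR adjusted p-values of at most 0.108. Dsp and Prox1 were also not called without both 497A and 499C (edgeR adjusted p = 0.0618 and 0.125).

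The pyramidal fields moved in both directions. Of 8 CA1 markers tested, 1 was higher in ventral (Mpped1, 0.48 ± 0.10) and 2 higher in dorsal (Lefty1 and Man1a, a Golgi mannosidase, at -0.50 ± 0.06), with a median of -0.205. Of 7 CA2 markers, Necab2, a calcium-binding protein, was higher in ventral and 3 were higher in dorsal (median -0.578). Necab2 ranged from 59.9 to 106 CPM in dorsal and from 110.5 to 134 CPM in ventral libraries, without overlap (0.71 ± 0.09, edgeR adjusted p = 0.00486). The dorsal ones were the kinase Map3k15 (-1.38 ± 0.40), Rgs14 (-0.70 ± 0.16), a suppressor of plasticity in CA2, and the neurotrophin gene Ntf3 (-0.58 ± 0.12), while Pcp4 (-0.13 ± 0.12) and Amigo2 (-0.17 ± 0.12) were not called. Of 7 CA3 markers, Nnat, Socs2 (0.48 ± 0.13), a brake on cytokine signalling, and Spock1 (0.29 ± 0.08), a testican proteoglycan, were higher in ventral, and Cpne4 (-0.48 ± 0.09) was higher in dorsal. The dorsal CA2 count was 0 without 497B and 1 without 499A or 499B, and the ventral CA3 count was 1 without 497B, 499A or 499B. For mossy cells, 0 of 5 markers were called (median 0.0319). Fits without 1 animal lost Mpped1 without 497B or 499A, Lefty1 and Map3k15 without 497A, 497B, 497C, 499A or 499B, Rgs14 and Socs2 without 497A, 497B, 499A or 499B, Ntf3 without 497B, and Spock1 without 497B, 497C, 499A or 499B, with edgeR adjusted p-values of at most 0.141.

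**Figure D3:**
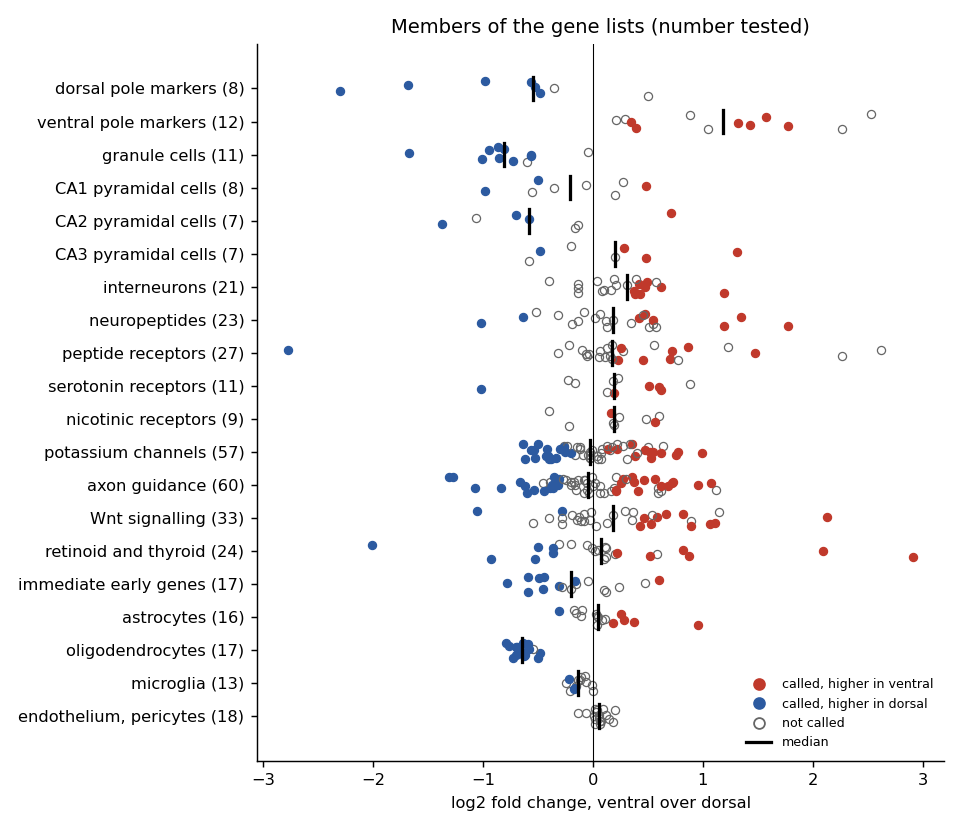
Log2 fold change, ventral over dorsal, of every tested member of 20 gene lists, with the number tested in brackets. Red and blue points were called higher in ventral and in dorsal, open points were not called, and black bars are medians. The granule cell (-0.81) and oligodendrocyte (-0.643) lists lie left of 0, and the ventral pole markers lie right of it (1.18).

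Factors that pattern the cortex and hippocampus were called in both directions, 5 higher in ventral and 8 higher in dorsal of 42 tested (median 0.0296). Besides Nr2f2 and Nr2f1, the ventral ones included Sox5 (0.53 ± 0.12), a factor of deep layer and projection neurons, and the inhibitor of bHLH factors Id2 (0.19 ± 0.06). Zbtb20, which specifies hippocampal pyramidal neurons, lay between 127 and 203 CPM in dorsal libraries (median 172) and between 77.9 and 127 CPM in ventral libraries (median 108). The fold change was -0.69 ± 0.13 (edgeR adjusted p = 0.0131). Bcl11b, the zinc finger factor CTIP2, separated the groups in the same way, with a dorsal median of 145.5 and a ventral median of 95.1 CPM (-0.61 ± 0.09, edgeR adjusted p = 0.00704). Neurod6, a bHLH factor of excitatory neurons, had a fold change of -0.63 ± 0.16. Mef2c (0.16 ± 0.17) and Lmo4 (0.05 ± 0.05) were not called. Zbtb20 and Bcl11b were called with each animal left out, whereas calls ended for Nr2f2 without 497A, 497B or 499A, Sox5 without 497B, 499A or 499B, Id2 without 497A, 497B, 497C, 499A or 499B, and Neurod6 without 497B, 497C, 499A or 499B, with edgeR adjusted p-values of at most 0.133. The dorsal count was 2 without 497B, 3 without 497C and 4 without 499B, and the ventral count was 2 without 497B or 499A and 3 without 497A or 499B, without both 497A and 499C or without the replicate block.

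Retinoid and thyroid hormone genes were called on both sides, with 6 members higher in ventral and 6 higher in dorsal of 24 tested (median 0.0746). Beside Dio3 and Rxrg, the ventral side held Crym, which binds thyroid hormone in the cytosol. Crym ranged from 88.9 to 199.6 CPM in dorsal libraries (median 158) and from 238 to 354 CPM in ventral libraries (median 249), without overlap (0.88 ± 0.13, edgeR adjusted p = 0.00820). Rbp4, the retinol carrier, had a fold change of 0.82 ± 0.16 (edgeR adjusted p = 0.0131). The dorsal side held, beside Cyp26b1, the retinoic acid producing enzyme Aldh1a1, with a dorsal median of 59.0 CPM and a ventral median of 28.7 CPM (-0.93 ± 0.15, edgeR adjusted p = 0.00989). The receptor Rara (-0.52 ± 0.13) and the thyroid-responsive corepressor Hr (-0.50 ± 0.10) were also higher in dorsal. Dio2, which makes active thyroid hormone, was at medians of 68.3 and 69.4 CPM (0.02 ± 0.05), and Rxrb at -0.05 ± 0.04, neither called. Crym, Cyp26b1, Aldh1a1 and Hr were called with each animal left out, and calls ended for Dio3 without 497A, 497B, 499A or 499B, Rxrg without 497A, 497B or 499A, Rbp4 without 497B, and Rara without 497A, 497B, 497C, 499A or 499B, with edgeR adjusted p-values of at most 0.12. Without 497B, 2 of the list were called higher in ventral.

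Interneuron markers were called toward the ventral end. Of 21 tested, 8 were called higher in ventral and 0 higher in dorsal (median 0.308). Sst, the neuropeptide somatostatin, lay between 158 and 211 CPM in dorsal libraries (median 189) and between 240 and 272 CPM in ventral libraries (median 260). The groups did not overlap (0.47 ± 0.06, edgeR adjusted p = 0.00333). Htr3a, the ionotropic serotonin receptor of a set of interneurons, had a dorsal median of 8.31 and a ventral median of 12.4 CPM (0.62 ± 0.09, edgeR adjusted p = 0.00486), and Lhx6, the factor of interneurons from the medial ganglionic eminence, a fold change of 0.49 ± 0.11 (edgeR adjusted p = 0.0172). Tac2, the neurokinin B precursor, was at 2.01 to 3.73 CPM in dorsal libraries, at 4.24 to 5.42 CPM in 5 ventral libraries and at 16.7 CPM in 499C ventral (1.19 ± 0.19, edgeR adjusted p = 0.00649). The enzymes of GABA synthesis Gad1 (0.08 ± 0.09) and Gad2 (0.04 ± 0.08) were not called. The count was 5 without 497B, 499A or 499B and 11 without 497A and 499C, and Sst, Htr3a and Tac2 were called with each animal left out. The call ended for Lhx6 without 497B, 499A or 499B, with edgeR adjusted p-values of at most 0.0647.

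Among 23 genes of the neuropeptide list, which also holds the neurotrophin Bdnf, 6 were higher in ventral and 2 higher in dorsal (median 0.181). After Grp, the ventral side held Nxph3, a neurexophilin, at medians of 11.8 and 35.6 CPM (1.35 ± 0.34, edgeR adjusted p = 0.0425). Tac1, the substance P precursor, was at 4.69 to 7.23 CPM in dorsal and 8.78 to 10.4 CPM in ventral libraries (0.55 ± 0.10, edgeR adjusted p = 0.00953). On the dorsal side, Pdyn, the dynorphin precursor of granule cells, lay between 13.7 and 23.9 CPM in dorsal libraries (median 17.8) and between 6.18 and 10.7 CPM in ventral libraries (median 8.99). The ranges did not overlap (-1.02 ± 0.17, edgeR adjusted p = 0.00931). Bdnf, the neurotrophin of activity-dependent plasticity, likewise separated the groups, at medians of 45.8 and 28.9 CPM (-0.63 ± 0.12, edgeR adjusted p = 0.0115). Cck (-0.08 ± 0.08) and Vgf (0.12 ± 0.05) were not called. Single omissions cost the calls of Grp without 497A, 497B, 499A or 499B, and Nxph3 without 497A, 497B, 497C, 499A or 499B, with edgeR adjusted p-values of at most 0.118, while Tac1, Pdyn and Bdnf kept theirs.

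Receptors for peptides were higher in ventral for 7 and higher in dorsal for 1 of 27 tested (median 0.178), a share of 29.6% against 18.7% of all genes. Sstr1, a somatostatin receptor, was at 2.95 to 8.59 CPM in dorsal libraries (median 3.50) and 10.3 to 15.4 CPM in ventral libraries (median 12.4), with no overlap (1.48 ± 0.29, edgeR adjusted p = 0.0174). Sstr2 (0.71 ± 0.17), the neurotensin receptor Ntsr1 (0.72 ± 0.21) and the oxytocin receptor Oxtr (0.86 ± 0.18) were also called. Oxtr was at a dorsal median of 6.41 CPM and a ventral median of 11.9 CPM (edgeR adjusted p = 0.0187). Avpr1b, the vasopressin receptor that marks CA2, was at 0.504 to 1.03 CPM in dorsal and 0.0233 to 0.238 CPM in ventral libraries. This low transcript had a fold change of -2.77 ± 0.38 (edgeR adjusted p = 0.00451) and separated the groups. Ntsr2 (0.11 ± 0.05) and Npy2r (-0.05 ± 0.17) were not called. Without single animals calls ended for Sstr1 and Sstr2 without 497A, 497B or 499A, Oxtr without 497A, 497B, 499A or 499B, and Ntsr1 without 497A, 497B, 497C or 499A, with edgeR adjusted p-values of at most 0.134, while Avpr1b kept its call. The ventral count was 3 without 497A, 1 without 497B or 499A and 4 without 499B.

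Ionotropic glutamate receptor genes were called on both sides, with 5 higher in ventral and 4 higher in dorsal of 17 tested (median 0.0603). On the dorsal side, the NMDA receptor subunit Grin2a lay between 233 and 335 CPM in dorsal (median 301) and between 161 and 231 CPM in ventral libraries (median 202), without overlap (-0.56 ± 0.10, edgeR adjusted p = 0.0105). Grin2b (-0.31 ± 0.07), Gria1 (-0.30 ± 0.09) and Gria2 (-0.26 ± 0.07) differed less, and Grin1 (-0.12 ± 0.06) and Grik5 (0.06 ± 0.05) were not called. On the ventral side, Grin3a, an NMDA receptor subunit that lowers calcium entry, ranged from 17.5 to 35.2 CPM in dorsal and from 37.7 to 49.3 CPM in ventral libraries (0.92 ± 0.20, edgeR adjusted p = 0.0253). The kainate subunit Grik1 (0.53 ± 0.10), the AMPA subunit Gria4 (0.42 ± 0.10) and Grin2d (0.36 ± 0.09) followed. The metabotropic receptor Grm5 was not called (-0.04 ± 0.08). Grin2a and Grik1 were called with each animal left out. Other calls ended for Grin2b without 497B or 499B, Gria1 without 497A, 497B, 497C, 499A or 499B, Gria2 without 497B, 497C, 499A or 499B, Grin3a and Gria4 without 497A, 497B, 499A or 499B, and Grin2d without 497B, 499A or 499B, with edgeR adjusted p-values of at most 0.11. The ventral count was 2 without 497A and 1 without 497B, 499A or 499B, and 3 without the replicate block. The dorsal count was 1 without 497B or 499B, and 2 without 497C, without 499A or without both 497C and 499C.

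GABA receptor genes were also called on both sides, 2 higher in ventral and 4 higher in dorsal of 16 tested (median -0.00318). Gabra3 ranged from 41.5 to 76.5 CPM in dorsal libraries (median 45.5) and from 74.8 to 109 CPM in ventral libraries (median 101), with 1 animal against the direction (0.86 ± 0.20, edgeR adjusted p = 0.0322). The rare theta subunit Gabrq had a fold change of 1.81 ± 0.42 from a dorsal median of 0.337 CPM. Gabra5, the subunit of tonic inhibition in pyramidal cells, had a fold change of -0.30 ± 0.08, as had Gabra4 (-0.30 ± 0.06). The metabotropic subunits Gabbr1 (-0.01 ± 0.05) and Gabbr2 (0.07 ± 0.06) were not called. The dorsal count was 1 without 497B and 2 without 497C or 499B, and the ventral count was 0 without 497B. With 1 animal left out, calls were lost for Gabra3 without 497A, 497B, 499A or 499B, Gabrq and Gabra4 without 497B, and Gabra5 without 497B, 497C, 499A or 499B, with edgeR adjusted p-values of at most 0.102.

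Nicotine acts through nicotinic acetylcholine receptors. Of 9 nicotinic receptor subunits tested, 2 were higher in ventral and 0 higher in dorsal (median 0.19), a share of 22.2% against 18.7% of all genes, and 0 were called without 497B. They were Chrna4 and Chrnb2, the 2 subunits of the main high-affinity nicotine receptor of the brain. Chrna4 was at 13.0 to 29.95 CPM in dorsal libraries (median 18.3) and 23.2 to 36.8 CPM in ventral libraries (median 29.5), overlapping, with 5 of 6 animals higher in ventral (0.57 ± 0.15, edgeR adjusted p = 0.0393). Chrnb2 was higher in all 6 animals, at medians of 50.6 and 57.3 CPM (0.17 ± 0.04, edgeR adjusted p = 0.0154). Chrna7, the homomeric receptor subunit (0.24 ± 0.11), and Chrna5 (-0.40 ± 0.13, edgeR adjusted p = 0.0504) were not called. Neither call held throughout, as calls were lost for Chrnb2 without 497B, and Chrna4 without 497A, 497B, 497C, 499A or 499B, with edgeR adjusted p-values of at most 0.109. Of 8 genes of muscarinic receptors and acetylcholine turnover, 3 were higher in ventral and 1 higher in dorsal (median 0.0278). Chrm3 lay between 52.7 and 71.9 CPM in dorsal and between 35.0 and 48.5 CPM in ventral libraries (-0.59 ± 0.10, edgeR adjusted p = 0.00820). Chrm4, an inhibitory receptor, went the other way without overlap, at medians of 7.71 and 13.3 CPM (0.64 ± 0.12, edgeR adjusted p = 0.00922), as did Chrm5 (0.87 ± 0.20) and the acetylcholine-degrading enzyme Ache (0.25 ± 0.04). Chrm1, the most abundant muscarinic receptor here, was not called (-0.22 ± 0.08). Chrm3, Chrm4, Chrm5 and Ache were called with each animal left out, but Chrm5 was not called without the replicate block (edgeR adjusted p = 0.187) or without both 497A and 499C (0.0536).

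Calls among monoamine receptors were more often higher in ventral. Of 11 serotonin receptor genes tested, 4 were higher in ventral (Htr3a, Htr7 at 0.60 ± 0.14, Htr5a at 0.52 ± 0.11 and Htr1a at 0.19 ± 0.05) and Htr1f was higher in dorsal (-1.02 ± 0.19), with a median of 0.195. Htr1a, the inhibitory receptor targeted by several anxiolytics, lay at medians of 33.6 and 37.8 CPM, and Htr4 was not called (-0.23 ± 0.15). Of 11 dopamine and adrenergic receptor genes, 4 were higher in ventral and 0 higher in dorsal (median 0.233). All 4 were adrenergic. The fit without the replicate block called 2 of these 11 genes higher in ventral and did not call Adra1b or Adra2c (edgeR adjusted p = 0.0700 and 0.39). DESeq2's Wald test did not call Adra2c either (adjusted p = 0.0707). Without 497B, 1 serotonin receptor gene was called higher in ventral. Adra2a was at 8.05 to 15.8 CPM in dorsal libraries (median 11.02) and 18.0 to 22.8 CPM in ventral libraries (median 20.1), without overlap (0.86 ± 0.17, edgeR adjusted p = 0.0149). Adra1b (0.59 ± 0.12), Adrb1 (0.45 ± 0.08) and Adra2c (0.18 ± 0.05) were the others, and the dopamine receptor Drd5, though its ranges did not overlap, was not called (-0.71 ± 0.20, edgeR adjusted p = 0.0527). Adra2a, Adra1b, Adrb1, Htr3a and Htr1f were called with each animal left out, while calls ended for Htr7 without 497B or 499B, Htr5a without 497B, and Htr1a and Adra2c without 497A, 497B, 497C or 499A, with edgeR adjusted p-values of at most 0.0963.

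Of 10 opioid and endocannabinoid genes tested, 3 were higher in ventral and 2 higher in dorsal (median 0.104). The receptors Oprk1 (1.42 ± 0.30), Oprl1 (0.51 ± 0.08) and Cnr1 (0.34 ± 0.09) were higher in ventral, and Dagla, which makes the endocannabinoid 2-arachidonoylglycerol, and Mgll (-0.20 ± 0.05), which degrades it, were higher in dorsal. Dagla lay between 145 and 196 CPM in dorsal libraries (median 171) and between 90.1 and 133 CPM in ventral libraries (median 112), without overlap (-0.64 ± 0.12, edgeR adjusted p = 0.0145). Oprl1, the nociceptin receptor, also separated the groups, at 27.2 to 40.4 and 43.5 to 52.8 CPM (edgeR adjusted p = 0.00653). Cnr1, the cannabinoid receptor, was at medians of 134 and 179 CPM. The enzymes Faah (-0.24 ± 0.09) and Napepld (-0.29 ± 0.11) were not called. Without 497B the counts were 1 higher in ventral and 0 higher in dorsal. Oprl1 was called with each animal left out, and calls ended for Oprk1 and Dagla without 497B, and Cnr1 and Mgll without 497B, 499A or 499B, with edgeR adjusted p-values of at most 0.102.

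Of 11 genes of the stress hormone axis tested, 1 was higher in ventral and 4 higher in dorsal (median 0.0333). Both receptors of corticosterone were on the dorsal side. Nr3c2, the mineralocorticoid receptor, lay between 116 and 197 CPM in dorsal libraries (median 138) and between 76.6 and 112 CPM in ventral libraries (median 92.0), without overlap (-0.63 ± 0.15, edgeR adjusted p = 0.0280). Nr3c1, the glucocorticoid receptor, differed less, at medians of 60.9 and 54.3 CPM (-0.20 ± 0.04, edgeR adjusted p = 0.0152). Hsd11b1, which regenerates corticosterone, had a fold change of -0.43 ± 0.10. Sgk1 and Tsc22d3, both known as glucocorticoid-induced genes, went in opposite directions, at -0.54 ± 0.06 and 0.25 ± 0.05 (edgeR adjusted p = 0.00333 and 0.0107), while Fkbp5, another such gene, was not called (-0.15 ± 0.08). Sgk1 ranged over more than the regional difference between animals, from 53.7 to 175 CPM in dorsal and 36.04 to 111 CPM in ventral libraries, and was lower in ventral in all 6 pairs. Without the replicate block neither Sgk1 (adjusted p = 0.413) nor Tsc22d3 (0.603) was called. The dorsal count was 1 without 497B, and 2 without 497A, 497C or 499B or without the replicate block. Without both 497A and 499C, 4 were called higher in ventral. Sgk1 and Tsc22d3 were called with each animal left out, and calls ended for Nr3c2 without 497A, 497B, 497C or 499B, Hsd11b1 without 497A, 497B, 499A or 499B, and Nr3c1 without 497B or 497C, with edgeR adjusted p-values of at most 0.0893.

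Potassium channel genes were called often, 12 higher in ventral and 17 higher in dorsal of 57 tested (median -0.0224). Kcnd2, the A-type channel of pyramidal cell dendrites, lay between 92.9 and 143 CPM in dorsal libraries (median 122) and between 71.5 and 88.3 CPM in ventral libraries (median 81.8), with no overlap (-0.56 ± 0.10, edgeR adjusted p = 0.0104). Kcnj2, an inward rectifier, had a fold change of -0.62 ± 0.09, Kcnh5 one of -0.64 ± 0.15 and Kcnh7 one of -0.54 ± 0.08. On the ventral side, Kcng1, a silent subunit that modifies Kv2 channels, was at 29.4 to 44.7 CPM in dorsal and 52.9 to 72.8 CPM in ventral libraries (0.77 ± 0.13, edgeR adjusted p = 0.00928). Kcnj16 (0.99 ± 0.22), Kcnc4 (0.76 ± 0.15) and the leak channel Kcnk9 (0.62 ± 0.14) were also called. The auxiliary subunit Kcnab2 was not called (-0.26 ± 0.09). Kcnd2, Kcnj2, Kcnh5, Kcnh7 and Kcng1 were called with each animal left out, and calls ended for Kcnj16 without 497A, 497B, 499A or 499B, Kcnc4 without 497B or 499A, and Kcnk9 without 497B, with edgeR adjusted p-values of at most 0.0906. Kcnh5 was not called without both 497A and 499C (edgeR adjusted p = 0.0648) or both 497C and 499C (0.0687). Without 497B the counts were 6 higher in ventral and 11 higher in dorsal.

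Of 32 sodium, calcium and HCN channel genes tested, 4 were higher in ventral and 7 higher in dorsal (median -0.0131). The T-type calcium channels took both sides, with Cacna1g (0.50 ± 0.09) and Cacna1i (0.43 ± 0.07) higher in ventral and Cacna1h (-0.38 ± 0.09) higher in dorsal. Cacna1g was at 23.7 to 35.97 CPM in dorsal and 38.8 to 42.3 CPM in ventral libraries (edgeR adjusted p = 0.00973). The auxiliary sodium channel subunits Scn4b (-0.99 ± 0.23) and Scn3b (-0.59 ± 0.12) separated the groups toward dorsal, with Scn3b at medians of 284 and 182 CPM (edgeR adjusted p = 0.0172), whereas Scn2b (0.01 ± 0.05) was not called. Hcn3, a pacemaker channel, was at 0.44 ± 0.09. Cacna1g, Cacna1i and Hcn3 were called with each animal left out, while calls ended for Cacna1h without 497A, 497B or 497C, Scn4b without 497A, 497B or 499A, and Scn3b without 497B, with edgeR adjusted p-values of at most 0.0925. The dorsal count was 2 without 497B and 4 without 499A.

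Axon guidance genes were called in equal numbers, 15 higher in ventral and 15 higher in dorsal of 60 tested (median -0.0419). Ephrin receptors were called in both directions. Epha7 and Epha6 (-0.83 ± 0.18) were higher in dorsal, and the ephrin ligand Efnb2 was higher in ventral, from 17.7 to 34.6 CPM in dorsal libraries (median 19.8) to 35.7 to 47.8 CPM in ventral libraries (median 44.9). The Efnb2 ranges did not overlap (0.95 ± 0.17, edgeR adjusted p = 0.0135). The receptor Epha8, at low level, was also higher in ventral (1.07 ± 0.23). Semaphorins also took both sides, with Sema5a at dorsal and ventral medians of 135.5 and 65.7 CPM (-1.07 ± 0.17, edgeR adjusted p = 0.0101) and Sema4g at 11.5 and 20.7 CPM (0.73 ± 0.07, edgeR adjusted p = 0.00333). The receptors Robo3 (-1.27 ± 0.28) and Unc5d (0.72 ± 0.18) were called in opposite directions, and Slit1 (-0.13 ± 0.08) and Plxna1 (-0.05 ± 0.09) were not called. Epha7, Epha8, Sema5a and Sema4g were called with each animal left out, while calls ended for Epha6 without 497B, 497C or 499B, Efnb2 without 497B, Robo3 without 497A, 497B, 497C, 499A or 499B, and Unc5d without 497A, 497B, 499A or 499B, with edgeR adjusted p-values of at most 0.0993. Without 497B, 9 of the list were called higher in dorsal. The fit without the replicate block called 9 higher in ventral, and Epha8 was not called (edgeR adjusted p = 0.0844).

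Wnt signalling genes were called mostly toward ventral, 10 higher in ventral and 2 higher in dorsal of 33 tested (median 0.187). The ligand Wnt4 ranged from 5.75 to 13.7 CPM in dorsal libraries (median 6.98) and from 15.8 to 19.1 CPM in ventral libraries (median 16.9), without overlap (1.11 ± 0.17, edgeR adjusted p = 0.00870). Rspo2, which amplifies Wnt signals, had a fold change of 1.06 ± 0.28, the decoy receptor Sfrp2 one of 0.90 ± 0.23 and Wnt2b, below 1.1 CPM in every library, one of 2.13 ± 0.40. Wnt2 lay on the other side (-1.05 ± 0.27), as did the coreceptor Lrp6 (-0.28 ± 0.07), and Dkk3 was not called (-0.19 ± 0.10). Wnt4 and Wnt2b were called with each animal left out, and calls ended for Rspo2 and Wnt2 without 497A, 497B, 497C, 499A or 499B, Sfrp2 without 497B, 497C, 499A or 499B, and Lrp6 without 497B, with edgeR adjusted p-values of at most 0.137. With 497B left out, 6 of the list were called higher in ventral and 0 higher in dorsal, and without both 497A and 499C 4 were called higher in dorsal.

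Adhesion molecules of synapses were called for 8 genes higher in ventral and 4 higher in dorsal of 40 tested (median 0.084). The teneurin Tenm4 lay between 46.0 and 86.5 CPM in dorsal libraries (median 60.2) and between 88.3 and 123 CPM in ventral libraries (median 112), with no overlap (0.82 ± 0.13, edgeR adjusted p = 0.00989). Its relative Tenm2 had a fold change of 0.52 ± 0.10, Igsf21, an organizer of inhibitory synapses, one of 0.99 ± 0.19 and Cntnap4 one of 0.70 ± 0.15. The neurexin ligand Lrrtm4 (-0.42 ± 0.07), Nrxn3 (-0.31 ± 0.05) and Flrt2 (-0.28 ± 0.04) were higher in dorsal. Nptx1 (-0.32 ± 0.13) and Adgrl1 (0.02 ± 0.04) were not called. Of 26 cadherins and protocadherins, 2 were called in each direction (median 0.0405), led by Cdh13 (0.64 ± 0.10) and Cdh8 (-0.48 ± 0.08). Of 43 matrix genes, 4 were higher in ventral and 7 higher in dorsal (median 0.0103), among them the testicans Spock2 (0.42 ± 0.07) and Spock3 (-0.58 ± 0.06) on opposite sides, while the perineuronal net components Bcan (0.08 ± 0.04) and Ncan (-0.02 ± 0.04) were not called. Called shares were 15.4% of the cadherins and protocadherins and 25.6% of the matrix genes, against 18.7% of all genes. Calls ended for Igsf21 without 497A, 497B or 499A, and Cntnap4 without 497A, 497B, 499A or 499B, with edgeR adjusted p-values of at most 0.0693, and the other called genes named here kept theirs. Without 497B the synaptic list had 3 and without 499B it had 5 calls higher in ventral, and the matrix list had 4 higher in dorsal without 497B and 1 higher in ventral without 497B, 497C, 499A or 499B. Without both 497A and 499C the matrix list had 7 higher in ventral. Without 499C the cadherins had 8 higher in ventral and 4 higher in dorsal, and without 497A they had 4 higher in dorsal. Without both 497A and 499C the cadherins had 6 in each direction, and without both 497C and 499C they had 8 higher in ventral.

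Genes tied to neuronal activity were called more often higher in dorsal than in ventral. Of 17 immediate early genes tested, 8 were called higher in dorsal and 1 higher in ventral (median -0.196). Egr1, a transcription factor induced by activity, lay between 165 and 202 CPM in dorsal libraries (median 182) and between 82.7 and 153.5 CPM in ventral libraries (median 127), without overlap (-0.59 ± 0.11, edgeR adjusted p = 0.0121). Arc, a regulator of AMPA receptor traffic, was at medians of 194 and 124 CPM and lower in ventral in all 6 animals (-0.59 ± 0.09, edgeR adjusted p = 0.00633), as was Egr4 (-0.49 ± 0.10). Fosl2 was the gene higher in ventral (0.60 ± 0.12), and Nr4a3 (-0.20 ± 0.09) and Nr4a2 (0.48 ± 0.22) were not called. Without the replicate block 5 were called higher in dorsal, and without 499C, alone or with 497C, 3 were called higher in ventral. Egr1 was not called without both 497A and 499C (edgeR adjusted p = 0.0627). With 497B left out, 4 were called higher in dorsal and 0 higher in ventral, and Egr4 and Fosl2 missed the threshold (0.0506 and 0.0552). Of 27 growth factor and neurotrophin genes, 2 were higher in ventral and 8 higher in dorsal (median -0.111), with Inhba (-0.67 ± 0.12), Bdnf and Ntf3 at the dorsal end and Fgfr3 (0.37 ± 0.07, not called without the replicate block) at the ventral end, and the Bdnf receptor Ntrk2 not called (0.11 ± 0.05). Among 14 neurogenesis markers, 2 were higher in ventral and 1 higher in dorsal (median -0.142), a share of 21.4% against 18.7% of all genes. Their summed level, in which abundant members weigh most, went opposite to this median. It was 271 to 395 CPM in dorsal and 400 to 432 CPM in ventral libraries. Igfbpl1, a marker of immature neurons, was higher in dorsal, at 1.66 to 7.60 CPM against 0.21 to 0.775 CPM in ventral libraries (-2.31 ± 0.48, edgeR adjusted p = 0.0178). The highest Igfbpl1 value came from 497A dorsal, and the next dorsal value was 2.41 CPM. Tubb3 (0.39 ± 0.06) was higher in ventral. Without 497B, 3 of the growth factor genes were called higher in dorsal, and 5 without 497C or 499A. Calls ended for Ntf3 without 497B, and Igfbpl1 without 497B or 499A, with edgeR adjusted p-values of at most 0.0585.

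Markers of oligodendrocytes, the myelin-forming glia, were higher in dorsal as a group. Of 17 markers tested, 16 were called higher in dorsal and 0 higher in ventral, with a median of -0.643. Mobp, a myelin protein gene, ranged from 780.4 to 1429 CPM in dorsal libraries (median 1183) and from 626 to 719.5 CPM in ventral libraries (median 658), without overlap (-0.77 ± 0.13, edgeR adjusted p = 0.00989). Ermn (-0.79 ± 0.13) and Aspa (-0.73 ± 0.14), which releases acetate for myelin lipids, were called, while Gjb1, a gap junction gene, was not (-0.54 ± 0.17, edgeR adjusted p = 0.0660). The summed level of the list was 6931 to 9326 CPM in 5 dorsal libraries and 5760 CPM in 499C dorsal, against 4234 to 5581 CPM in ventral libraries. In 499C the dorsal and ventral sums, 5760 and 5581 CPM, were nearly equal. All 17 were called without 497A and 499C, and 10 to 17 with 1 animal left out (10 without 497A). For precursors of these cells, 1 of 10 markers was called, Cspg4 higher in ventral (0.26 ± 0.05), with a median of 0.047, and without the replicate block Cspg4 was not called (edgeR adjusted p = 0.0552).

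**Figure D4:**
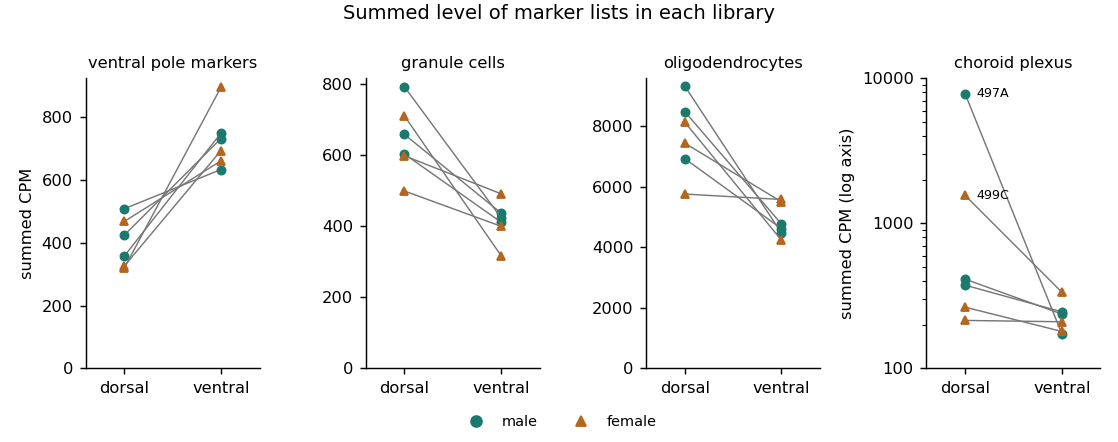
Summed CPM of 4 marker lists in each library, with lines joining the 2 libraries of an animal, circles for males and triangles for females. Axes start at 0 except for choroid plexus, which has a log axis. The oligodendrocyte sum was lower in ventral in all 6 animals, and the choroid plexus panel shows the 2 dorsal libraries at 7841 CPM (497A) and 1560 CPM (499C).

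Of 16 astrocyte markers tested, 5 were higher in ventral and 1 higher in dorsal (median 0.0436). Agt, the angiotensinogen gene that astrocytes express in a regional pattern, was at 8.21 to 27.1 CPM in dorsal and 25.3 to 43.1 CPM in ventral libraries (0.96 ± 0.14, edgeR adjusted p = 0.00772), and Aldoc (0.28 ± 0.05) and Aldh1l1 (0.25 ± 0.05) followed. Unpaired, that is, without the replicate block, 2 astrocyte markers were higher in ventral, and Aldh1l1 was not called (edgeR adjusted p = 0.15). Gfap, the intermediate filament, was higher in dorsal (-0.31 ± 0.08), and the glutamate transporters Slc1a2 (0.03 ± 0.06) and Slc1a3 (0.09 ± 0.05) were not called. Of 13 microglia markers, 3 were higher in dorsal and 0 higher in ventral (median -0.132), a share of 23.1% against 18.7% of all genes. The microglia count was 0 without 497B and 1 without the replicate block. Of 18 endothelial and pericyte markers, 0 were called (median 0.0558), and likewise 0 of 6 blood transcripts (median -0.0902) and 0 of 13 mitochondrially encoded transcripts (median -0.00852). With 1 animal left out, Gfap lost its call without 497A, 497B, 499A or 499B, with edgeR adjusted p-values of at most 0.0823.

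Neighbouring tissues were read through their own markers. Of 18 choroid plexus markers tested, 0 were called, although the median was -1.41. Ttr, the transthyretin gene of that epithelium, was at 34.6 to 117 CPM in 4 dorsal libraries, 1035 CPM in 499C dorsal and 5166 CPM in 497A dorsal, against 25.5 to 144 CPM in ventral libraries (-1.40 ± 1.18). Without 497A and 499C the median was -0.361 and 4 were called higher in dorsal. Of 12 ependyma markers, Dynlrb2 was called higher in dorsal (-1.16 ± 0.25), with a median of -0.771 and a summed level of 109 CPM in 497A dorsal against 22.8 to 69.3 CPM in the other dorsal libraries. Meninges gave 0 of 12 (median -0.0253). Of 13 neocortical and entorhinal markers, Fezf2, a factor of subcortical projection neurons, was called higher in ventral (0.58 ± 0.14), with a median of 0.478. Of 9 amygdala markers, Tac2 and Rspo2 were higher in ventral, and Cyp26b1, Prkcd and Lmo3 (-0.27 ± 0.07) higher in dorsal (median 0.179). These markers are also expressed in hippocampus or other forebrain regions. Of 12 striatal markers, 2 were higher in ventral and 1 higher in dorsal (median 0.0772), and of 11 thalamic and habenular markers, 2 were higher in ventral and 1 higher in dorsal (median 0.187). Called shares were 25% (striatal), 27.3% (thalamic and habenular), 7.69% (neocortical and entorhinal) and 8.33% (ependymal), against 18.7% of all genes. Of 6 subiculum markers, Scn4b and Bcl6 (-0.48 ± 0.10) were higher in dorsal (median 0.192), and Tshz2 was not called (0.97 ± 0.35). Of 13 general neuronal genes, Gap43 (0.89 ± 0.18), a growth cone protein, and Tubb3 were higher in ventral, and Camk2a (-0.28 ± 0.08) and the neuronal nuclear protein Rbfox3 (-0.21 ± 0.06) higher in dorsal (median 0.0747). The choroid plexus, ependymal and neocortical levels were not used to adjust any value. Among these genes calls ended for Dynlrb2 without 497B, Fezf2 without 497B, 499A or 499B, Rspo2 without 497A, 497B, 497C, 499A or 499B, Prkcd without 497B or 499A, Lmo3, Camk2a and Rbfox3 without 497B, 497C, 499A or 499B, and Scn4b and Gap43 without 497A, 497B or 499A, with edgeR adjusted p-values of at most 0.137. Counts of these lists also moved with single animals. Without 499C, 5 neocortical and 4 striatal markers were called higher in ventral, and 4 ependymal markers higher in dorsal. Without 497B, 499A or 499B, 0 neocortical markers were called higher in ventral. Without 497B, the fit called as higher in dorsal 0 ependymal, striatal, thalamic and general neuronal markers and 1 amygdala marker. Without 499A, 1 amygdala marker and 0 general neuronal markers were called higher in dorsal, as were 0 of the latter without 497C or 499B. Without 497A, 3 choroid plexus markers were called higher in dorsal.

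The regional difference was also compared between sexes and between sire treatments. Between females and males, 0 of 18121 genes (0%) were called for a different regional fold change by edgeR, 1060 had an unadjusted p under 0.05, and DESeq2's Wald test called 5. The hemoglobin genes Hba-a2 and Hba-a1 had the smallest p-values and did not pass. Hba-a2 had fold changes of -0.46 ± 0.05 in males and 0.26 ± 0.05 in females (difference 0.71 ± 0.07, edgeR adjusted p = 0.0993), and Slc17a6, a vesicular glutamate transporter, differed by 0.91 ± 0.16 (edgeR adjusted p = 0.807). Values within each sex were close for Lct at -2.27 in males and -2.34 in females, and for Epha7 at -1.27 and -1.36. For Plagl1 they were 0.76 and 1.93, and for Gpr101 1.16 and 2.08, and edgeR called neither difference. With 3 pairs of each sex, a p that misses the threshold does not show that the sexes act alike.

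The 6 nicotine-sired animals, which share no library with the saline-sired ones, were fitted separately. Of 18421 genes, 4795 (26%) were called. Of the saline calls tested in both sets, 2191 (64.8%) were called in the same direction in nicotine-sired animals, which was 46% of the nicotine calls, and 0 were called in the opposite direction. The sign was shared for 95.3% of saline calls, against 72.9% of all 17964 genes tested in both. Of 223 saline calls of at least 2-fold, 193 were called again. Dcn and Trhr, which had just missed the threshold, had fold changes of 3.08 and 3.43 in the nicotine-sired animals (edgeR adjusted p = 0.000198 and 5.29e-06), and Dio3 one of 4.26 ± 0.14. For the difference between the sire treatments in the regional fold change, 0 of 19107 genes (0%) were called by edgeR with all 24 libraries. Here 1824 genes had an unadjusted p under 0.05, the smallest adjusted p was 0.473, and DESeq2 called 0. Cdc42ep1, an effector of a small GTPase, had the smallest p (saline -0.16, nicotine -0.54) and did not pass.

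**Figure D5:**
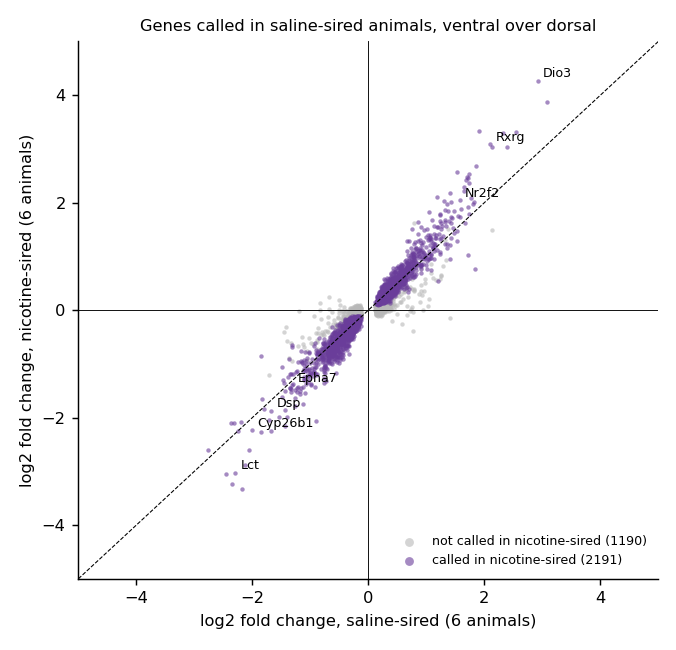
Log2 fold change, ventral over dorsal, in saline-sired (horizontal) and nicotine-sired animals (vertical) for the 3381 saline calls tested in both. Purple points (2191) were called in both sets and grey points (1190) in the saline-sired animals and not in the nicotine-sired ones, and the dashed line marks equal values.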

How the data were processed

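RNA-seq of 12 hippocampal libraries (stranded mRNA kit, 150-base single reads, per the labels' protocols) was read from the deposited table of raw counts per gene made by the authors. TopHat2 2.1.0, Cufflinks, Cuffdiff 2.2.1.3 and mm10 (GRCm38) are named in the submitters' processing notes. No source used here names the counting tool, the strand setting or the annotation release. Of 51912 gene IDs, 51719 matched GENCODE M21.

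Counts were scaled by TMM and filtered by region (filterByExpr), and tested with edgeR 4.0.16 (robust quasi-likelihood, animal as block plus region, Benjamini-Hochberg threshold 0.05), in R 4.3.3. DESeq2 1.42.0 was an alternative, beside other scaling, filter, block and leave-one-out fits. Same-prefix libraries deviated together (correlations 0.12 to 0.434, all 6 above 0.1), though the same-prefix library was the best match for only 3 of 6 animals. Sex was not removed from these deviations, so the correlations do not settle the pairing, which rests on the title prefix. Scripts were tested on simulated data. Genes were named by fixed rules: the 15 largest called changes each way (at least 5 CPM, 6 of 6 animals), all pole markers, and up to 4 called members a direction with 2 uncalled ones in each of 47 lists. Members and lists were chosen with earlier results of these data known. Values of some genes are not reported here.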

Additional observations from a re-analysis of the deposited data

Results flagged for a closer look

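Each value below is 1 library that stood apart from the other 5 of its region, by a gap to its nearest neighbour of more than 0.625 of the whole range. Such gaps were found in 36 of 476 groups of 6 libraries (7.56%), and chance gives about 1 in 20.

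In the dorsal library of 497A, Calb2 was the highest at 80.42 CPM (next 37.13), Igfbpl1 was the highest at 7.596 CPM (next 2.41), Inhba was the highest at 13.85 CPM (next 8.973), Kcnh5 was the highest at 4.193 CPM (next 2.714), Lypd1 was the lowest at 77.42 CPM (next 86.91), Strip2 was the highest at 61.58 CPM (next 35.75), Ttr was the highest at 5166 CPM (next 1035). In the dorsal library of 497C, Cnr1 was the highest at 172.2 CPM (next 134.9), Unc5d was the highest at 28.51 CPM (next 18.6), Vgll3 was the highest at 3.511 CPM (next 1.065), Wnt2b was the highest at 0.4233 CPM (next 0.1677). In the ventral library of 499A, Aldh1l1 was the highest at 81.28 CPM (next 62.51), Drd5 was the lowest at 6.267 CPM (next 11.66), Dsp was the lowest at 7.89 CPM (next 20.86), Gria1 was the lowest at 584.3 CPM (next 704.3), Plekha2 was the lowest at 11.02 CPM (next 17.68), Slc1a3 was the highest at 752 CPM (next 627.9). In the ventral library of 499B, Cpne7 was the highest at 226.5 CPM (next 177.3), Gabrq was the highest at 1.553 CPM (next 1.169), Slc17a6 was the lowest at 10.84 CPM (next 19.55). In the dorsal library of 499C, Epha6 was the lowest at 24.15 CPM (next 36.16), Nrxn3 was the lowest at 117 CPM (next 139.4). In the ventral library of 499C, Aldh1a1 was the highest at 46.06 CPM (next 31.42), Cyp26b1 was the highest at 7.286 CPM (next 4.012), Efnb2 was the lowest at 35.66 CPM (next 43.45), Gpr151 was the highest at 7.375 CPM (next 0.8877), Lefty1 was the highest at 13.89 CPM (next 7.704), Lhx6 was the lowest at 18.5 CPM (next 21.52), Prkcd was the highest at 17.13 CPM (next 9.804), Rara was the highest at 17.34 CPM (next 12.36), Rgs14 was the highest at 106.4 CPM (next 73.23), Robo3 was the highest at 3.866 CPM (next 1.555), Tac2 was the highest at 16.68 CPM (next 5.42). 

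Of the 14 marker lists tested in this way, 3 were flagged by their summed level. Microglia markers summed to 547.7 CPM in the dorsal library of 499B, against 515.5 CPM in the next. Choroid plexus markers summed to 7841 CPM in the dorsal library of 497A, against 1560 CPM in the next. Amygdala markers summed to 420.5 CPM in the dorsal library of 497A, against 333.9 CPM in the next.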

How the results depend on the processing

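Region calls numbered 3392, and 0 of them had the opposite sign under any alternative run. Without the replicate block, which pairs the libraries of an animal, 1932 genes were called (885 higher in ventral, 1047 higher in dorsal), and 1874 of these were among the paired calls. The other whole-table settings kept the count within 1.5 times, from 2855 without a filter on low counts to 4462 with the spread of all 24 libraries. With 1 animal left out the count ran from 1168 (without 497B) to 3563 (without 499C), with 557 to 1785 higher in ventral, 611 to 1778 higher in dorsal and 83 to 370 of at least 2-fold. Fewer pairs enter each of these fits. Further alternatives were chosen after seeing the data: without 497A and 499C 3442 genes were called, and without 497C and 499C 2812, with 442 of at least 2-fold. For the sex difference, 2 genes (Hba-a2 and Hba-a1) were called with no filter on low counts, 5 by DESeq2's Wald test, and 0 to 1 (Snord55, without 499C) with 1 animal left out. For the sire treatment difference, 1 gene (Hbb-bh3) was called with no filter. Of 168 named genes that were called, 66 stayed called under every alternative and 102 were lost under at least 1, and the cause of these losses was not tested. Without the replicate block 22 of the 168 were lost, without 497A and 499C 19 were, and without 497C and 499C 11 were. Values changed sign for 11 named genes, none of them called. Their log2 fold changes with 1 animal left out ran for Adgrl1 from -0.01461 to 0.03093 (-0.00693 without 497A and 499C), for Dio2 from -0.0001352 to 0.07099, for Gabbr1 from -0.03671 to 0.02433, for Gad2 from -0.02333 to 0.1035, for Grm5 from -0.1145 to 0.01337 (0.03867 without 497C and 499C), for Lmo4 from -0.002372 to 0.07042 (-0.0001469 without 497A and 499C), for Npy2r from -0.1595 to 0.1255, for Pcp4 from -0.1933 to 0.002637 (0.006446 without 497A and 499C), for Plxna1 from -0.1252 to 0.04406, for Scn2b from -0.0346 to 0.02763 (-0.04937 without 497A and 499C, -0.007691 without 497C and 499C), for Slc1a2 from -0.01208 to 0.07654. Depth limits transcripts near or below 1 CPM, such as Avpr1b and Wnt2b.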

Other observations

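Gene groups not described above were read from 5 lists put together after their values had been seen, so their counts are descriptions and carry no test of the group. Of 37 genes tested from a list of imprinted genes, 12 were called higher in ventral and 1 higher in dorsal. Their median log2 fold change was 0.208 against -0.0012 over all genes. Whether each was expressed from 1 parental copy in these libraries was not tested. Dio3, Nnat and Plagl1 belong to this list. Blcap, which shares a locus with Nnat, was at medians of 69.5 CPM in dorsal and 99.4 CPM in ventral libraries (0.51 ± 0.06, edgeR adjusted p = 0.00377), and Ndn, the necdin gene, at 157 and 214 CPM (0.47 ± 0.05, edgeR adjusted p = 0.00333). Of 20 genes of cholesterol synthesis and uptake, 10 were called higher in ventral and 0 higher in dorsal (median 0.192).

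Of 9 adenylyl cyclases, 4 were higher in ventral and 3 higher in dorsal. Adcy1, the calcium-stimulated cyclase, was at medians of 905 CPM in dorsal and 542 CPM in ventral libraries (-0.74 ± 0.08, edgeR adjusted p = 0.00333), whereas Adcy8, the other cyclase of that kind, was at 14.9 and 22.4 CPM (0.51 ± 0.12). Of 19 clock genes, 6 were higher in dorsal, Arntl among them (-0.34 ± 0.05), and 2 higher in ventral, of which Npas2, a partner of Arntl, was at 0.56 ± 0.13. Of 9 copines, Cpne2 and Cpne7 were higher in ventral and Cpne4 and Cpne8 (-0.39 ± 0.09) higher in dorsal.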
